A study of Mus musculus with 4 samples.

Results

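The genes described here are 5 members of the renin-angiotensin system in sorted mouse lung fibroblasts: angiotensinogen (Agt), angiotensin-converting enzyme (Ace) and the angiotensin II receptors Agtr1a, Agtr1b and Agtr2. They were taken by gene name from a table of 23444 symbols, and each had 1 entry. The members were chosen by pathway, after their FPKM in these same libraries had been seen and with Agt already known to differ between ages, so their levels are a description, with no test. RNA came from lung cells labelled as Pdgfra+ fibroblasts of WT C57BL6 mice at embryonic days 16.5 and 18.5 (E16.5, E18.5) and at postnatal days 7 and 28 (P07, P28). The labels give no treatment, no sex and no number of animals per library, and no transgene or other allele.

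In the classical pathway renin cuts angiotensinogen to angiotensin I, and angiotensin-converting enzyme trims that peptide to angiotensin II. Angiotensin II acts through the type 1 receptor, which mice encode in a pair of genes (Agtr1a and Agtr1b), and through the type 2 receptor Agtr2, which is known for high expression in fetal tissue. In the lung, angiotensin-converting enzyme is best known from the surface of capillary endothelial cells, and angiotensinogen in blood comes mainly from hepatocytes.

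Each age had 1 library, so there is no spread between animals, and differences are between single libraries. Values are FPKM, fragments per kilobase scaled to library size by the authors, which allow levels to be compared between genes. Read totals cannot be had from FPKM and the depth is unknown. Ratios of low values put the E18.5 library at roughly 0.7 times the depth of E16.5. That figure is the commonest bin, which held 35 of 993 ratios, so it is a rough guide only. The E18.5 library also stood apart in scale, with a median-ratio factor of 0.581 against 1.08 to 1.38 in the other libraries, so values after median-ratio scaling are also given where they change which library was highest for a gene or list described here. Calls of higher or lower needed a difference of at least 1 in log2(FPKM + 1), which is 2-fold, and 5 FPKM in the higher library. Pdgfra, the sorting marker, was between 88.7 and 188 FPKM in every library. Of 8 fibroblast markers, 8 reached 1 FPKM in each library.

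Agt lies on GRCm38 chromosome 8 (124556534 to 124569706, minus strand) and has 1 annotated transcript of 5 exons. Ace lies on chromosome 11 (105967945 to 105989964, plus strand) and has 3 protein-coding transcripts with up to 25 exons. The 250 bases before the RefSeq start of each (build GRCm38.p6) are shown. Agt and Ace had the widest ranges of log2(FPKM + 1) among the 5 members, at 4.72 and 6.10, against 3.06 for Agtr2. Capitals mark TATAA, the letters of a TATA box, where it begins 40 to 20 bases before the start on the coding strand, the one shown.
Agt, chr8:124569707-124569956, minus strand: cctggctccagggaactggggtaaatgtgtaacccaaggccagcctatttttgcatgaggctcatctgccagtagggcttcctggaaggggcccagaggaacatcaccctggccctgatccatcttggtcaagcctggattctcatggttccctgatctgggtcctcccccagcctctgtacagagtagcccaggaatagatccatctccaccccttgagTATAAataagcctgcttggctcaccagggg
Ace, chr11:105967698-105967947, plus strand: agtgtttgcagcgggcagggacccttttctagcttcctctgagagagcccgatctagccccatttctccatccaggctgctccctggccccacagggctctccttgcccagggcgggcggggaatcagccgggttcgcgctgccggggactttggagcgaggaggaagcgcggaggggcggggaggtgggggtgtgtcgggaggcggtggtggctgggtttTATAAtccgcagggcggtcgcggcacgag

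TATAA begins 30 bases before the start of Agt and 29 bases before that of Ace. It also begins 31 bases before the start of Agtr1b and 26 bases before that of Agtr2, so it is not particular to Agt and Ace. It falls in this window in 3.52% of 32851 RefSeq promoter sequences. The windows differ in base composition, with 55.6% G or C before Agt and 67.2% before Ace, against a median of 52.4%. The Ace sequence holds GGGCGG, a GC box, at 4 places counting both strands (a neighbouring pair overlaps), and the Agt sequence holds none. GGGCGG is present on either strand in 32.7% of promoters of this length. AGAACA, the core letters of a glucocorticoid receptor site, is on neither strand of these 2 sequences, and is present in 16.1% of promoters. RefSeq lists a second Ace start inside the gene, with no TATAA in the window. The second start is known as that of the short testis form, and the deposited table has 1 value per age for Ace as a whole. An antisense gene (Gm11651) overlaps Ace, and a sense intronic one (Gm48161) lies in Agtr1a; the labels do not say whether counting used strand, so reads of Ace and its antisense partner cannot be told apart.

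Agt, the only known precursor of the angiotensins, was at 1.42 FPKM at E16.5, then 32.9 at E18.5, 46.0 at P07 and 0.776 at P28. It was thus high in the 2 middle libraries and near 1 FPKM at both ends of the course. The log2 difference of E18.5 against E16.5 was 3.81 (23.2-fold on FPKM), and that of P28 against P07 was -4.72 (59.2-fold lower). The latter fold rests on 0.776 FPKM in a library of unknown depth, so its size is uncertain. Within their libraries, 98.2% of symbols lay below Agt at E18.5 and 96.8% at P07, but 57.5% at E16.5 and 51.0% at P28.

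The order of the 2 high libraries depended on the scale. As deposited, Agt was 1.40-fold higher at P07 than at E18.5, and after median-ratio scaling it was at 56.6 at E18.5 and 33.4 at P07, 1.70-fold lower at P07. Neither difference reached 2-fold. The higher value at E18.5 than at E16.5 and the low value at P28 were present under both scales, with scaled log2 differences of 4.69 for E18.5 against E16.5 and -4.32 for P28 against P07. The P07 against E16.5 difference, which leaves out the E18.5 library, was 4.28 as deposited and 3.94 scaled. Set against Pdgfra within each library, which no scaling alters, Agt was at 1.60% of the Pdgfra level at E16.5, 34.3% at E18.5, 40.7% at P07 and 0.413% at P28.

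**Figure D1:**
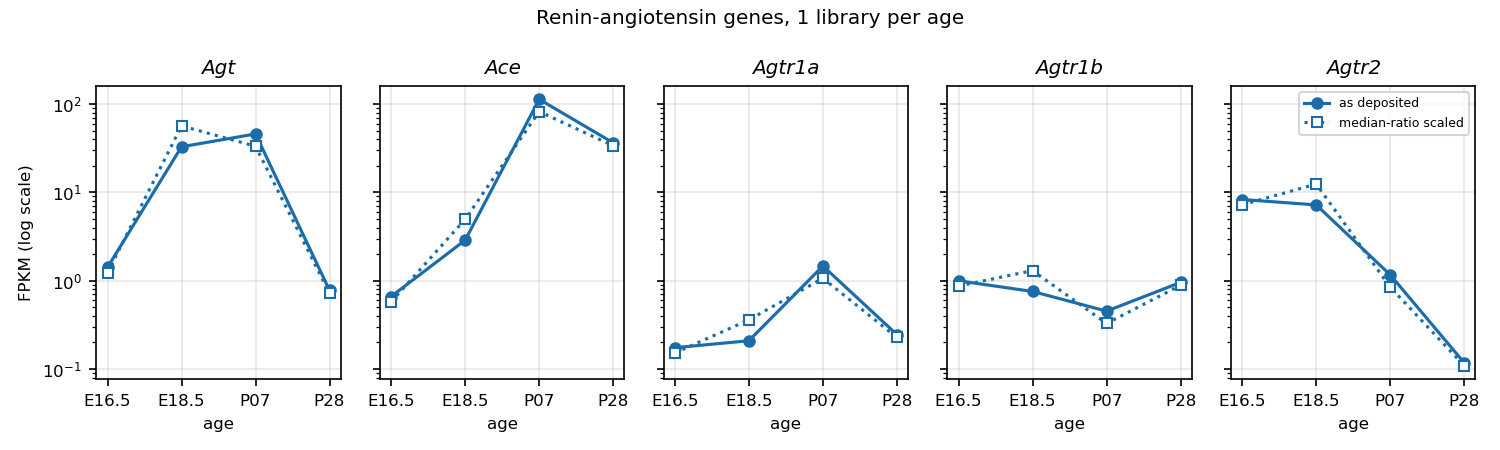
FPKM of the 5 members at each age on a log axis, with filled circles for values as deposited and open squares for values after median-ratio scaling (1 library per age, so no error bars). Agt is high at E18.5 and P07 only, Ace is highest at P07 (113 FPKM), and Agtr2 is lower at P07 and P28 than in both fetal libraries.

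Most markers of hepatocytes and adipocytes, which are known to make angiotensinogen elsewhere, stayed under 1 FPKM. Of 7 hepatocyte markers, only transferrin (Trf), which many cells express, reached 1 FPKM as deposited. It was at 46.1 FPKM at E16.5, then 13.5 at E18.5, 16.5 at P07 and 90.9 at P28. Albumin (Alb) stayed between 0.0630 and 0.640 FPKM, lowest at P07 and highest at P28. Transthyretin (Ttr) was listed at 0 in 3 libraries and was at 0.0607 FPKM at E18.5. The apolipoprotein Apoa1 was at 0.0728 FPKM at E16.5, then 0.784 at E18.5, 0.286 at P07 and listed at 0 at P28. It was thus highest in the same 2 middle libraries as Agt, and after scaling it reached 1.35 at E18.5. Of 6 adipocyte markers, only the fatty acid binding protein Fabp4 reached 1 FPKM, at 0.305 FPKM at E16.5, then 3.76 at E18.5, 2.52 at P07 and 0.344 at P28. The adipocyte list summed to 0.305, 4.23, 2.86 and 0.383 FPKM in order of age, highest in the same 2 middle libraries as Agt. Smooth muscle markers were at a summed 314 FPKM at E16.5, then 139 at E18.5, 513 at P07 and 31.0 at P28, lowest at P28 as Agt was. The most abundant was the actin Acta2, at 168 FPKM at E16.5, then 39.5 at E18.5, 216 at P07 and 9.95 at P28. Desmin (Des), a muscle intermediate filament on the same list, was at 5.19, 19.2, 61.3 and 6.06 FPKM. Its values were high in the 2 middle libraries as those of Agt were. For E18.5 against E16.5, 1 of 7 smooth muscle markers was higher (Des) and 2 were lower (Acta2 and Actg2). After scaling 2 were higher (Tagln and Des) and 1 was lower (Acta2). Over all symbols 2.32% were higher and 47.4% lower (9.34% and 12.2% scaled). The 8 pericyte markers summed to 18.0, 31.2, 65.3 and 24.9 FPKM in order of age, highest at P07 as deposited, and after scaling they were highest at E18.5, at 53.7 against 47.4 at P07. The 6 erythroid markers summed to 487 FPKM at E18.5 against 1.65 to 21.3 in the other libraries. The part of these cells in the Agt values was not tested. In bulk samples a smaller number of cells of a type and less RNA per cell cannot be told apart.

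Ace, the enzyme that makes angiotensin II and also breaks down bradykinin, was at 0.662 FPKM at E16.5, then 2.88 at E18.5, 113 at P07 and 36.4 at P28. Both postnatal libraries lay above both fetal libraries. The largest single step was that of P07 against E18.5, with a log2 difference of 4.88 (3.80 after scaling). The difference of P28 against P07 was -1.61 (-1.26 scaled). Over the ends of the course Ace was 55.0-fold higher at P28 than at E16.5 on FPKM, with a log2 difference of 4.49. That fold rests on 0.662 FPKM at E16.5 in a library of unknown depth, so its size is uncertain. The E18.5 against E16.5 difference was 1.22 (1.92 scaled), but neither library reached the 5 FPKM needed for a call. At P07 Ace stood at 100.5% of the Pdgfra level.

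Endothelial markers had the same order of ages in sum. The 10 endothelial markers summed to 17.7 FPKM at E16.5, then 25.7 at E18.5, 768 at P07 and 199 at P28, and each of the 10 was highest at P07 as deposited and scaled. The most abundant were vascular endothelial cadherin (Cdh5), at 5.0 and 5.79 FPKM in the fetal libraries, 276 at P07 and 67.3 at P28, the adhesion molecule Pecam1, at 3.45, 6.65, 128 and 33.3, and the VEGF receptor Kdr, at 1.31, 1.74, 68.7 and 23.6. As a share of the summed endothelial markers, Ace was at 3.74% at E16.5, 11.2% at E18.5, 14.8% at P07 and 18.3% at P28. Thus Ace was higher at each successive age relative to these markers, while both were highest at P07 in absolute level. The part of endothelial RNA in the Ace values was not tested.

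**Figure D2:**
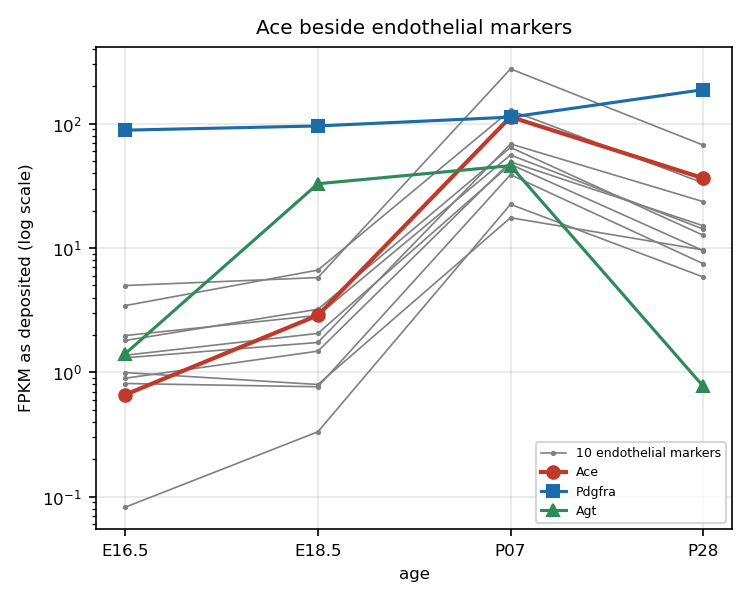
FPKM as deposited on a log axis for Ace (red circles), Agt (green triangles), Pdgfra (blue squares) and 10 endothelial markers (grey) at each age, 1 library per age. Ace and the grey lines are highest at P07 and lie in between at P28, whereas Agt is already high at E18.5 (32.9 FPKM) and low at P28 (0.776 FPKM).

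The receptors were all less abundant than Agt and Ace at P07. Agtr2 (chromosome X, 21484544 to 21489164, plus strand) encodes the type 2 receptor. It was at 8.31 FPKM at E16.5, then 7.22 at E18.5, 1.16 at P07 and 0.117 at P28. Both fetal libraries lay above both postnatal ones. The log2 difference of P07 against E18.5 was -1.93 (-2.86 scaled), and that of P28 against E16.5 was -3.06 (-2.89 scaled), or 70.8-fold lower on FPKM. The highest library was E16.5 as deposited and E18.5 after scaling (7.25 and 12.4), a pair that differed by less than 2-fold either way. The further difference between P07 and P28 was -0.95 on the log2(FPKM + 1) scale, which shrinks differences between low values, and 9.92-fold on FPKM. Both FPKM folds against P28 rest on 0.117 FPKM in a library of unknown depth, so their size is uncertain.

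The type 1 receptor genes stayed low. Agtr1a (chromosome 13, 30336441 to 30382867, plus strand) was at 0.174 FPKM at E16.5, then 0.209 at E18.5, 1.47 at P07 and 0.245 at P28, so P07 was the 1 library above 1 FPKM. Agtr1b (chromosome 3, 20314473 to 20367177, minus strand) was at 0.998, 0.756, 0.452 and 0.957 FPKM in order of age, lowest at P07, and after scaling it was highest at E18.5 (1.30). Neither gene reached the 5 FPKM needed for a call in any library. Their coding sequences, of 1077 bases each, are identical at 978 positions (90.8%), with a longest identical run of 66 bases, so how the authors' processing split reads between them is uncertain. By contrast, Agtr1a and Agtr2 are identical at 56.9% of aligned coding bases. The sum of Agtr1a and Agtr1b was at 1.17 FPKM at E16.5, then 0.965 at E18.5, 1.92 at P07 and 1.20 at P28, and after scaling it was highest at E18.5 (1.66, against 1.39 at P07). Whether that sum depends on how shared reads were counted was not tested.

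The balance of receptor transcripts differed between the fetal and postnatal libraries. Agtr2 was 7.09 times the summed type 1 receptor level at E16.5 and 7.49 times at E18.5, against 0.607 times at P07 and 0.0976 times at P28. These ratios are taken within a library and do not change with its scale. At P28 the summed type 1 receptor level was 10.2 times that of Agtr2, with all 3 receptor genes under 1 FPKM. The order of Agt and Ace differed as well. Agt was 2.14 times the Ace level at E16.5 and 11.4 times at E18.5, while Ace was 2.47 times the Agt level at P07 and 47.0 times at P28. The E16.5 and P28 ratios rest on 0.662 FPKM for Ace and 0.776 FPKM for Agt, so their size is uncertain.

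Counted over the members, E18.5 against E16.5 had 1 member higher (Agt) and 0 lower of the 2 that reached 5 FPKM, where 2.32% of all symbols that could be called were higher and 47.4% lower (9.34% and 12.2% after scaling). P07 against E18.5 had Ace higher and Agtr2 lower of 3 members, with backgrounds of 63.3% and 2.89% (14.7% and 12% scaled). P28 against P07 had 2 of 2 lower, Agt and Ace, with 10.5% of symbols higher and 16.9% lower (14.6% and 10.3% scaled). P28 against E16.5 had Ace higher and Agtr2 lower of 2 members at 5 FPKM, with backgrounds of 18% and 16.9% (19.7% and 15% scaled). P07 against E16.5 had Agt and Ace higher and Agtr2 lower of 3, with backgrounds of 15.7% and 6.68% (12.3% and 9.62% scaled). P28 against E18.5 had Ace higher and Agt and Agtr2 lower of 3, with backgrounds of 48.5% and 4.58% (20.3% and 13.1% scaled). As deposited, the median log2 difference of all symbols at 1 FPKM or more was -0.71 in E18.5 against E16.5, 0.92 in P07 against E18.5 and -0.23 in P28 against P07; after scaling these were -0.02, 0.03 and 0.03. In all 6 comparisons the same members were called as deposited and scaled. These comparisons share libraries, and the members were listed with results known, so nothing is read from the counts.

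**Figure D3:**
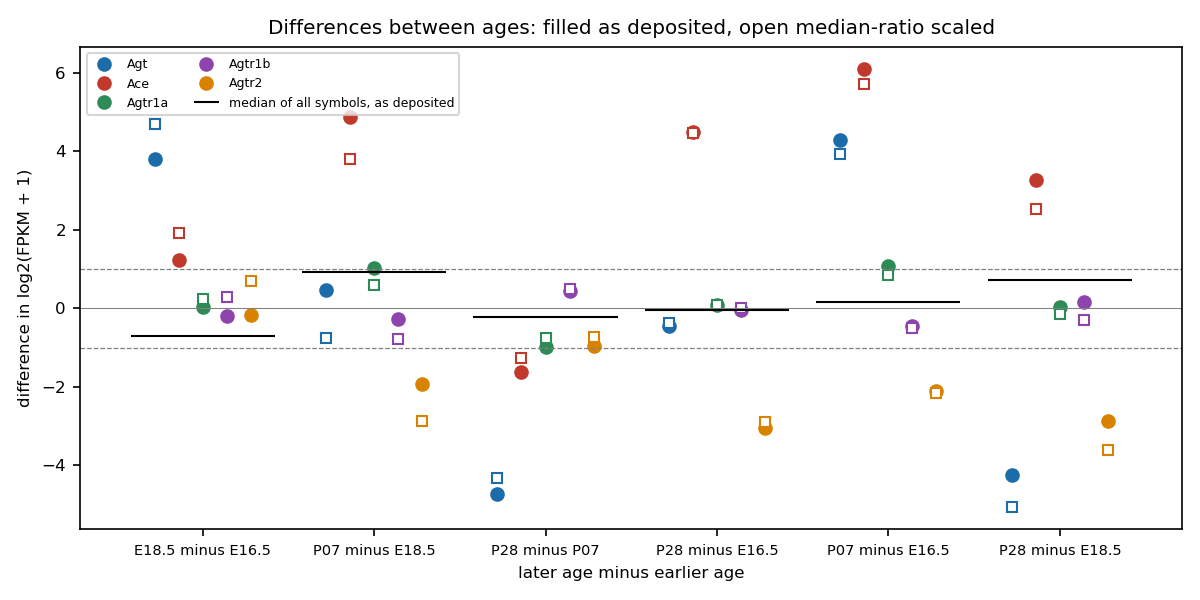
Difference in log2(FPKM + 1), later age minus earlier age, for the 5 members in each of 6 pairs of libraries, with filled circles as deposited, open squares after median-ratio scaling, a black line at the median of all symbols at 1 FPKM or more as deposited, and dashed lines at 2-fold. Agt and Ace leave the dashed band by the widest margins, up to 6.10 for Ace in P07 against E16.5, while Agtr1b stays inside it in every pair.

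The other genes of angiotensin formation and breakdown came from a list of 15 peptidases, of which 13 reached 1 FPKM. Renin (Ren1), which starts the pathway, had 0.107 FPKM at E16.5 and was listed at 0 in the other 3 libraries. Cathepsin D (Ctsd), a lysosomal protease that can cut angiotensinogen in vitro, was the most abundant of the list, at 84.6, 27.0, 99.1 and 87.4 FPKM from E16.5 to P28. It was highest at P07 as deposited and at P28 after scaling (71.9 and 81.0). The mast cell proteases stood out at E16.5. The chymase gene Cma1 was at 12.1 FPKM at E16.5, then 0.831 at E18.5, 0.134 at P07 and listed at 0 at P28. Carboxypeptidase A3 (Cpa3), a mast cell granule protease, was at 31.3, 0.817, 0.119 and 0.278 FPKM. The leukocyte marker Ptprc, a phosphatase found on most white blood cells, was also highest at E16.5, at 15.4 FPKM against 0.0983 to 0.536 later. Of 8 leukocyte markers 7 were highest at E16.5, and the lysozyme gene Lyz2 was highest at P28, at 5062 FPKM. The part of leukocytes in the protease values was not tested.

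Among enzymes that trim or degrade angiotensins, 3 were at least 2-fold higher at P28 than at E16.5, and each was highest at P28. Aminopeptidase A (Enpep), which trims angiotensin II to angiotensin III, was at 8.12 FPKM at E16.5, then 8.77 at E18.5, 29.8 at P07 and 59.9 at P28. Neprilysin (Mme), which makes angiotensin 1-7 from angiotensin I, was at 2.06, 4.85, 6.68 and 71.4 FPKM. Aminopeptidase N (Anpep), which cuts angiotensin III further, was at 3.94, 1.80, 2.38 and 43.7 FPKM. For P28 against E16.5, 3 peptidases were higher (these 3) and 2 lower (Cma1 and Cpa3) under either scale, with a list median of -0.38 against -0.03 over all symbols. Over all symbols 18% were higher and 16.9% lower (19.7% and 15% scaled). Epithelial markers were also highest at P28, 10 of 10, where they made 14.1% of summed FPKM against 0.0188% to 0.141% in the other libraries. Mesothelial markers, 6 of 6 highest at P28, summed to 2.21, 11.8, 52.0 and 163 FPKM in order of age. The part of either cell type in the P28 values was not tested.

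For E18.5 against E16.5, of 13 measured peptidases 0 were higher and 7 lower, with a median log2 difference of -1.21 against -0.71 over all symbols (1 higher and 3 lower of 12 after scaling). Over all symbols 2.32% were higher and 47.4% lower (9.34% and 12.2% scaled). For P07 against E18.5, 6 were higher and 0 lower (2 and 0 scaled), with a median of 1.08 against 0.92, and 63.3% of all symbols were higher and 2.89% lower (14.7% and 12% scaled). For P28 against P07, 2 were higher and 1 lower (3 and 1 scaled), with a median of -0.18 against -0.23, and 10.5% of all symbols were higher and 16.9% lower (14.6% and 10.3% scaled). The 1 lower was prolylcarboxypeptidase (Prcp), which removes the last residue of angiotensin II, at 62.9 FPKM at P07 and 9.63 at P28.

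Of 7 other receptors and receptor partners, 5 reached 1 FPKM. Mas1, the receptor for angiotensin 1-7, stayed between 0.106 and 0.455 FPKM. Mtus1, which encodes a partner of the type 2 receptor, was the most abundant, at 20.4 FPKM at E16.5, then 8.12 at E18.5, 44.3 at P07 and 22.8 at P28, and it was the 1 gene called on this list for P07 against E18.5 under either scale. Agtrap, whose product binds the type 1 receptor and promotes its uptake, was at 1.96, 0.784, 3.39 and 5.35 FPKM. Lnpep, the angiotensin IV-binding aminopeptidase, was at 10.1, 7.12, 9.72 and 15.4 FPKM. For P28 against P07 no gene of this list was called in either direction under either scale.

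**Figure D4:**
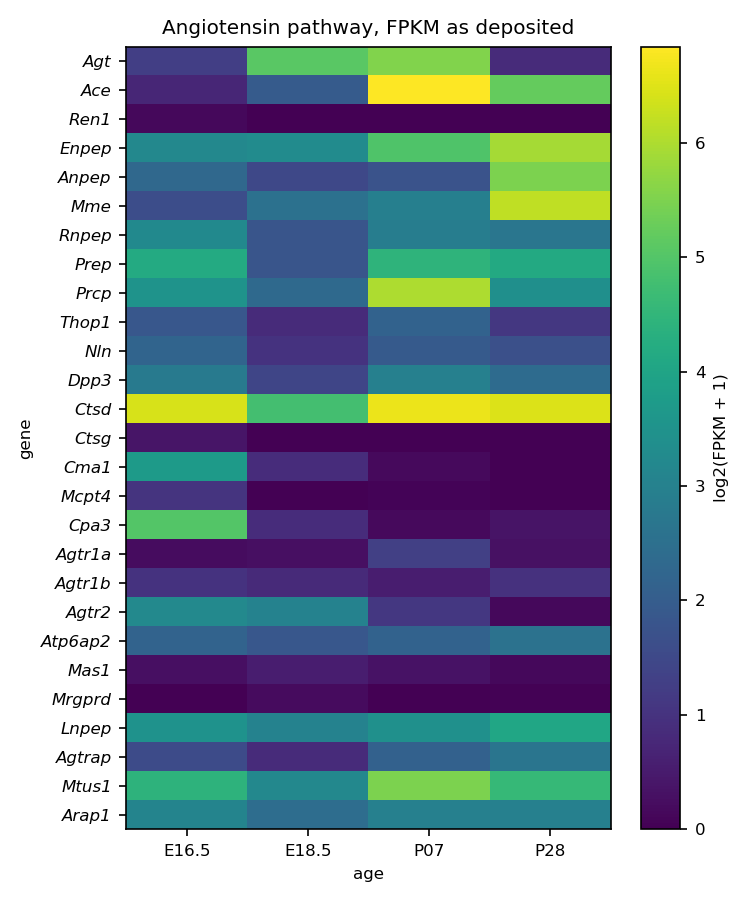
Level of the 5 members, 15 angiotensin peptidases and 7 other receptors and partners at each age, coloured by log2(FPKM + 1) as deposited, 1 library per age. Ren1 and Mas1 are dark at every age, Cma1 and Cpa3 are bright at E16.5 only, and Mme, Enpep and Anpep are brightest at P28.

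Of 16 listed genes of signalling from the type 1 receptor, 14 to 16 reached 1 FPKM in each library. Rgs2, a brake on Gq signalling, was the most abundant, at 31.3 FPKM at E16.5, then 58.0 at E18.5, 23.6 at P07 and 14.7 at P28. Beta-arrestin 1 (Arrb1), which uncouples the receptor from its G protein, was at 6.06, 2.90, 26.4 and 19.5 FPKM. The G protein subunit Gna12 was at 14.3, 6.12, 39.3 and 14.8 FPKM, while the pericyte-enriched regulator Rgs5 was at 9.81, 5.59, 9.41 and 0.177, highest at E16.5 as deposited and at E18.5 after scaling (8.55 and 9.63). For P07 against E16.5, 4 genes were higher and 0 lower (4 and 1 scaled), with a list median of 0.66 against 0.16 over all symbols, of which 15.7% were higher and 6.68% lower (12.3% and 9.62% scaled). For P28 against P07, 0 were higher and 3 lower (2 and 2 scaled), with a median of -0.64 against -0.23, beside 10.5% higher and 16.9% lower over all symbols (14.6% and 10.3% scaled).

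Corticosteroid genes are shown because glucocorticoids are known to raise Agt in liver. The glucocorticoid receptor Nr3c1 was at 14.3 FPKM at E16.5, then 14.3 at E18.5, 19.9 at P07 and 13.5 at P28. It was highest at P07 as deposited and at E18.5 after scaling (14.5 and 24.6). Hsd11b1, which regenerates active glucocorticoid, was at 5.44, 12.4, 8.51 and 250.4 FPKM. Of 12 glucocorticoid response genes, 4 were higher and 0 lower for E18.5 against E16.5 (8 and 0 scaled), with a median of 0.61 against -0.71 over all symbols (1.43 against -0.02 scaled), where 2.32% of all symbols were higher and 47.4% lower (9.34% and 12.2% scaled). For P07 against E18.5, 1 was higher and 6 lower (1 and 9 scaled), with a median of -0.96 against 0.92 (-2.09 against 0.03 scaled), where 63.3% were higher and 2.89% lower (14.7% and 12% scaled). For P28 against P07, 11 were higher and 1 lower under either scale, with a median of 2.21 against -0.23, where 10.5% were higher and 16.9% lower (14.6% and 10.3% scaled). The 1 gene that went the other way from the rest of the called genes in the last 2 comparisons was the kinase Sgk1, at 7.97 FPKM at E16.5, then 4.33 at E18.5, 77.0 at P07 and 19.8 at P28. The transcription factor Zbtb16 was at 2.83, 7.91, 0.317 and 29.2 FPKM in order of age, and the metallothionein Mt1 at 9.87, 60.9, 0.271 and 18.2. The list was chosen with earlier results of these libraries known. The part of glucocorticoids in the Agt values was not tested.

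Related vasoactive systems gave a point of comparison. The endothelin receptor Ednrb was at 122 FPKM at E16.5, then 85.9 at E18.5, 24.2 at P07 and 6.93 at P28, the same order of ages as Agtr2, and after scaling both were highest at E18.5 (148 for Ednrb, against 106 at E16.5). Ece1, the endothelin-converting enzyme, was at 5.07, 4.51, 78.2 and 36.4 FPKM, with the highest library at P07 as for Ace. Of 8 kinin system genes, 2 reached 1 FPKM, and the bradykinin receptors Bdkrb1 and Bdkrb2 stayed under 1 FPKM. Cpm, a kinin-cleaving carboxypeptidase, was at 3.56, 2.45, 23.7 and 51.2 FPKM. The natriuretic peptide receptor Npr1 was at 0.495, 0.135, 7.89 and 5.97 FPKM. Among the serpins, the protein family to which Agt belongs, the complement inhibitor Serping1 was at 25.6, 31.9, 84.3 and 610.5 FPKM, and Serpina3n was listed at 0 at E16.5 and was at 0.490, 3.56 and 80.6 later. Both were highest at P28, where Agt was lowest, and 3 of 9 measured serpins were higher and 0 lower for P28 against P07 under either scale. The list median was 0.65 against -0.23 over all symbols, of which 10.5% were higher and 16.9% lower (14.6% and 10.3% scaled).

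Genes with the pattern most like each member were ranked among 7398 other symbols at 5 FPKM or more, by the root mean square distance between log2(scaled FPKM + 1) profiles centred on their own mean over the 4 libraries. The nearest to Agt was Ccdc3, which encodes a secreted protein, at a distance of 0.33 and levels of 4.01, 69.3, 59.0 and 1.35 FPKM in order of age. Next were Lmcd1, a LIM domain regulator (0.42), Stc1, the hormone stanniocalcin 1 (0.51), Ltbp2, a latent TGF-beta binding protein (0.83), and Vsnl1, a calcium sensor (0.94). All 5 were high at E18.5 and P07, and Lmcd1 was the lowest of them at P28, at 0.557 FPKM.

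The nearest to Ace were Ptprb, the vascular endothelial phosphatase (0.26), Scn7a, a sodium channel (0.28), Aqp1, a water channel (0.33), Cdh5 (0.37) and Gpr116, an adhesion receptor (0.42). Of the 10 endothelial markers, 4 were among the 20 of 7398 symbols nearest to Ace (Cdh5, Kdr, Cldn5 and Pecam1). Among the 20 nearest to Agt there were 0. Of the 7 smooth muscle markers, 1 was among the 20 nearest to Agt (Des, rank 6, at a distance of 1.01), and 0 were among those nearest to Ace. The nearest to Agtr2 were the growth factor Ptn (0.20), the kinase Nrk (0.22), the imprinted RNA Rian (0.25), the imprinted gene Nnat (0.26) and the imprinted RNA Meg3 (0.30). Agt and Ace were 2.76 apart on the same measure. As each profile was centred on its own mean, small distances show a like pattern over these 4 libraries only, and levels can differ.

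**Figure D5:**
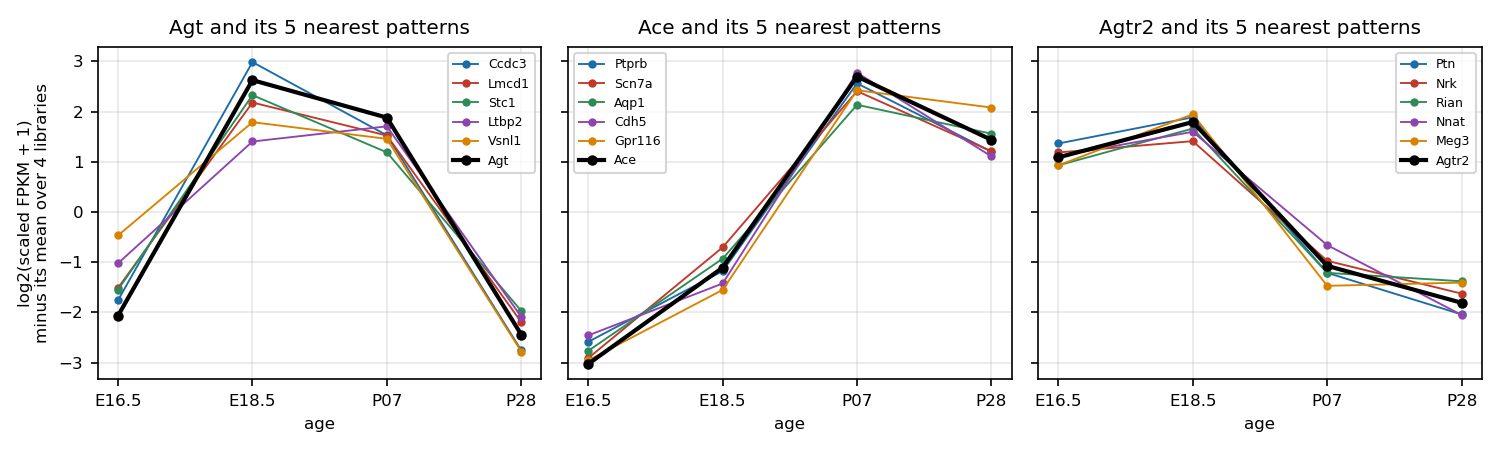
Profiles of log2(scaled FPKM + 1), each minus its own mean over the 4 libraries, for Agt, Ace and Agtr2 (black) with the 5 nearest symbols of each (coloured), 1 library per age. The Agt group is high in the 2 middle libraries, the Ace group at P07 and P28, and the Agtr2 group in the 2 fetal libraries.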

How the data were processed

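RNA-seq was deposited for sorted Pdgfra+ lung fibroblasts, with 1 library at each of 4 ages. Per the labels, RNA came from a circulating nucleic acid kit and was sequenced as paired ends from Nextera XT libraries. Per the submitters' processing notes, TopHat and TopHat2 2.0.9 and the builds GRCm38 and mm10 are named; the program behind FPKM was not given in the sources used here. FPKM were deposited by the authors, per the file headers, for 23931 entries. As 128 positive values lie under 1e-06, the values are estimates from a model, and a listed 0 may mean that no estimate was obtained.

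Entries sharing a symbol were summed (258 symbols, 745 entries). Differences were taken on log2(FPKM + 1), later age minus earlier, and called at 1 or more with the higher library at 5 FPKM or more. Percentages of all symbols are over those reaching 5 FPKM in either library of the pair. Median-ratio factors (1.15, 0.581, 1.38 and 1.08 in order of age) came from symbols at 1 FPKM or more in all 4 libraries. With 1 library per age there is no test and no p-value. The members, the 9 pathway lists, the 10 cell type lists and the motifs were chosen with earlier results of these data known; all 171 listed genes were in the table. A withheld item is not reported here. List medians use genes at 1 FPKM or more in some library. Named genes are the members, Ren1, Mas1, the most abundant and up to 4 widest-ranging genes of each list at 5 FPKM or more, the 3 most abundant of each cell type list, and the 5 nearest patterns. Outside this rule, chosen after their values were seen, are Enpep, Prcp, Ttr, Ptprc, Des, Bdkrb1, Bdkrb2 and Cldn5. Of the named genes some are passed over in the text. Coordinates are from GENCODE M21 on GRCm38. Promoter sequences are RefSeq's on GRCm38.p6, found for 4 of the 5 members. The code was tested on simulated data. Python 3.11.15, numpy 2.4.6, pandas 2.3.3 and matplotlib 3.10.9 were used.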

Additional observations from a re-analysis of the deposited data

How the results depend on the processing

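The 30 member differences were recomputed at a 4-fold threshold, without a minimum and at one of 20 FPKM, with pseudocounts of 0.1 and 5, under 3 other scalings and another treatment of shared symbols, and with scaling to Pdgfra, which was chosen after seeing the data. None of the called differences changed sign under these settings. Without a minimum, or with upper-quartile scaling or a total without erythroid, mitochondrial and ribosomal protein genes, members higher at E18.5 than at E16.5 became 2, with Ace added. Without a minimum, members higher at P07 than at E18.5 became 2 and those higher at P07 than at E16.5 became 3, each with Agtr1a added. Members lower at P07 than at E18.5 became 0 with a pseudocount of 5, a minimum of 20 FPKM or a 4-fold threshold, as Agtr2 was lost. The 20 FPKM minimum, which Agtr2 never reaches, also gave 0 lower for P28 against E16.5 and for P07 against E16.5, and 1 lower for P28 against E18.5. The 4-fold threshold left 1 member, Agt, lower at P28 than at P07. Of the 20 symbols nearest to Agt, 17 were shared with FPKM as deposited and 14 with a pseudocount of 0.1. For Ace these were 19 and 13, and for Agtr2 19 and 8. Of the 5 nearest patterns named for each, 5 stayed among the 20 for Agt with a pseudocount of 0.1. For Ace 4 stayed and for Agtr2 3, so the named neighbours of Agtr2 depend in part on the pseudocount. No paired analysis was possible because each age had 1 library. Unknown depth limits what can be said of Agtr1a, Agtr1b, Ren1 and Mas1, of Agt and Agtr2 at P28, and of Ace at E16.5.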
